A study of Homo sapiens with 4 samples.

Results

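The 81 cytosolic ribosomal protein genes described here are rows of a gene count table, chosen by symbol. The symbol is RPL or RPS with a number and nothing further but, in some, a closing A, X or L. RPLP0, RPLP1, RPLP2 and RPSA were added. The genes were 81 of 56271 rows, 49 of the large and 32 of the small ribosomal subunit. The values come from poly-A RNA of SKBR3, a human HER2-positive breast cancer cell line, in 2 eGFP control and 2 VIRMA-overexpressing libraries. VIRMA is a component of the complex that places N6-methyladenosine (m6A) on RNA, and the comparison asks which transcripts differ when it is raised. The VIRMA-overexpressing cells carried full-length VIRMA with an HA tag, joined to eGFP by a p2A peptide, in a lentivirus driven by the human ubiquitin C promoter, and the controls carried eGFP, so that a lentivirus and eGFP were shared by both groups. Per the study's methods each group was a sorted and expanded population of eGFP-positive cells, not a clone. The culture text of all 4 libraries mentions a low-oxygen chamber, but the study's methods use such a chamber for other assays and name no low oxygen for RNA sequencing, so the oxygen level is uncertain and was the same in both groups as far as the labels say.

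Ribosomal proteins assemble with ribosomal RNA into the small subunit, which reads the messenger RNA, and the large subunit, which joins amino acids. Their messenger RNAs are among the most abundant of growing cells, and most of them begin with a terminal oligopyrimidine (TOP) tract, a C at the cap followed by a run of C and T. Through this tract the kinase mTOR, with LARP1 and the 4E-BP proteins, controls how much of these messages is translated.

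A TOP tract was looked for at the annotated starts of RefSeq (GRCh38.p14) as a C within 4 bases of the start followed by at least 4 bases that are C or T, on the strand of the gene only. Of the 81 genes, 64 matched an entry. The tract was found at 52 of these 64 genes (81.3%), at 32 of 39 large subunit genes (82.1%) and 20 of 25 small subunit genes (80%), and at 18.6% of all 27305 genes in the table. The 30-base windows printed here hold 10 bases before the start and 20 from it, with the matched run in capitals. They are shown for large and small subunit genes with large and with small differences between the groups, and for a pair of genes without a match.
RPL7A: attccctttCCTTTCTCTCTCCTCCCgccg
RPL35: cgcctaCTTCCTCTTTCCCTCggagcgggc
RPL41: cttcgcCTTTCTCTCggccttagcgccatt
RPL12: cgatttccggCCTCTCggctttcggctcgg
RPL19: agctctttCCTTTCgctgctgcggccgcag
RPS9: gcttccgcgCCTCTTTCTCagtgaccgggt
RPSA: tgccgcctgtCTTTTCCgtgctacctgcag
RPS18: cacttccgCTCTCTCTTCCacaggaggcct
RPS26: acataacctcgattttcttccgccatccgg
RPS27L: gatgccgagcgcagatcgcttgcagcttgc
On the plus strand these windows lie at chr9:133348208-133348237 (RPL7A), chr12:56116623-56116652 (RPL41), chr17:39200313-39200342 (RPL19, the later of 2 annotated starts), chr19:54200848-54200877 (RPS9), chr3:39406710-39406739 (RPSA), chr6:33272065-33272094 (RPS18) and chr12:56041908-56041937 (RPS26). On the minus strand they lie at chr9:124861938-124861967 (RPL35), chr9:127451387-127451416 (RPL12) and chr15:63157458-63157487 (RPS27L). The tract stood at the starts of genes that fell and of genes that were not called, and RPS26, which had no match within 4 bases of its start, was among the small subunit genes that fell furthest. Over the 52 genes with a match the median log2 fold change, as described further on, was -0.20 with 42 lower. Over the 11 tested genes without a match it was -0.26 with 10 lower. Among all 12205 tested genes it was 0.01, with 35.9% lower and 35.1% higher. The window of RPS26 holds a run of C and T further from the start, so a gene without a match may still carry a tract. Whether the fall went with the tract was therefore not tested.

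The libraries held 81446932 to 86375474 counts. Overexpressed VIRMA, listed under its older symbol KIAA1429, was read 710 and 682 times in the controls against 3437 and 3460 times with VIRMA overexpressed (log2 fold change 2.29, SE 0.0685, edgeR adjusted p 9.7e-26). All 6 epithelial and SKBR3 markers were present, at a summed 25824 to 26259 CPM (counts scaled to a common library size) in the controls and 23351 to 23522 in VIRMA-overexpressing cells. Of 12 markers of blood, vessel and connective tissue cells 2 passed the filter on low levels, and the summed level of the list was 36.0 to 45.3 CPM in the controls and 11.1 to 12.0 CPM in VIRMA-overexpressing cells. HBB, the beta-globin gene, was read 2137 and 1543 times in the controls and 0 times in each VIRMA-overexpressing library, and the part of these markers in the results was not tested. The mitochondrial share of counts was 11.4% and 11.6% in the controls and 12.8% in each VIRMA-overexpressing library.

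Ribosomal protein genes took a large share of all counts. It was 12.0% and 12.2% for control cells and 11.4% and 11.6% for VIRMA-overexpressing cells. Outside mitochondrial genes the shares were 13.6% and 13.9% against 13.1% and 13.3%. On either base both VIRMA-overexpressing libraries lay below both controls, and the smallest p that an exact two-sided permutation test can give for such a design is 0.333.

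Levels between genes were compared per length, as mean CPM per kilobase of coding sequence, because the exonic lengths in the table add up all transcript forms. The 79 genes with an RPKM (reads per kilobase of exon, scaled to library size) above 1 in at least 2 libraries passed the filter for testing, and all 79 were above that level in all 4. Their median was 2299 CPM per coding kilobase over 47 large subunit genes and 1967 over 32 small subunit genes. The middle 50% of genes lay between 1431 and 3146 in the large subunit and between 1360 and 3271 in the small subunit.

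RPL19, a large subunit protein near the exit tunnel, stood above all others at 36126 CPM per coding kilobase, 3.53 times the next gene, RPL41. RPL41 has a coding length of only 75 bases, and its place depends on this scale. It ranked 2 per coding kilobase, 15 per kilobase of exon and 51 by CPM. RPL19 ranked 1 on all of these scales, at 4.65 times RPS18 per kilobase of exon and 4.21 times RPL7 by CPM. In the deposited counts RPL19 had 1767679 and 1789630 reads in control cells and 1794911 and 1786363 reads in VIRMA-overexpressing cells. These were 2.07% to 2.19% of each library. RPL19 alone made 17.2% and 16.9% of the ribosomal protein counts in the controls and 18.97% and 18.89% with VIRMA overexpressed. On GRCh38 it lies on chromosome 17 from 39200283 to 39204727, 483 kb from ERBB2, the HER2 gene that SKBR3 cells are known to carry in extra copies. RPL23, on the same chromosome at 834 kb from ERBB2, had a mean of 579.8 CPM. The copy number of either gene was not measured here.

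At the other end, 8 genes had fewer than 5000 counts in every library. They were RPL10L, RPL3L, RPS10, RPL36A, RPL17, RPS27L, RPL39L and RPL26. Part of the exonic bases of some of these rows also belongs to another row on the same strand, 28.8% for RPS10 (with RPS10-NUDT3), 32.7% for RPL17 (with RPL17-C18orf32), 14.6% for RPL26 and 8.4% for RPL36A (with RPL36A-HNRNPH2). Some genes with many counts share bases in the same way, such as RPS2 (25.6%) and RPL7A (12.7%). How reads shared between rows were counted is not given in the sources used here, so the levels of all these rows are uncertain. Near-identical copies are a further limit. The table held 1028 rows named as pseudogenes of 75 of the genes, with 0.532% to 0.637% as many counts as the genes themselves when summed over all genes. Single genes had far more. The rows named after RPL41 held 13278 and 12758 counts in the controls and 10535 and 9181 with VIRMA overexpressed. RPL41 itself held 69617 and 77024 against 53551 and 57425. Those named after RPS2 held 19473 and 20930 against 13446 and 14107, beside 266345 and 274528 against 206642 and 208204 for RPS2.

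**Figure D1:**
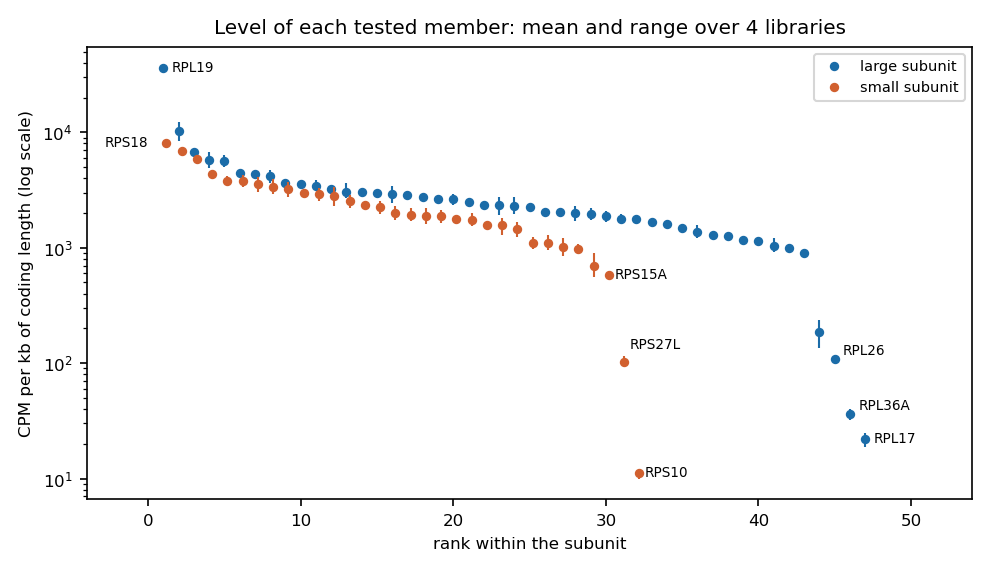
Mean level of each tested ribosomal protein gene in CPM per kilobase of coding length, on a log axis, ranked within the large (blue) and small (orange) subunit, with bars from the lowest to the highest of the 4 libraries. RPL19 stands apart at 36126, and RPL17, RPL36A, RPL26, RPL39L, RPS10 and RPS27L are the lowest of their subunits.

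Transcripts of most ribosomal protein genes were lower in VIRMA-overexpressing cells, and small subunit genes fell further than large subunit genes. Of 79 tested genes 66 fell and 1 rose at an edgeR adjusted p below 0.05, and 12 were not called. The median log2 fold change was -0.22, so that the median gene fell by 14.3%, where the median over all 12205 tested genes was 0.01. The background is wide, since 35.9% of all tested genes were called lower and 35.1% higher. All changes of the tested ribosomal protein genes were small: 0 passed 2-fold, which 2.93% of all tested genes passed as lower and 4.52% as higher. In 67 of the 79 genes both VIRMA-overexpressing libraries lay below both controls and in 4 above, against 41.6% and 42.7% of all tested genes. In a bulk sample fewer cells of a type and less RNA per cell cannot be told apart, and the values are relative to the other transcripts of each library.

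**Figure D2:**
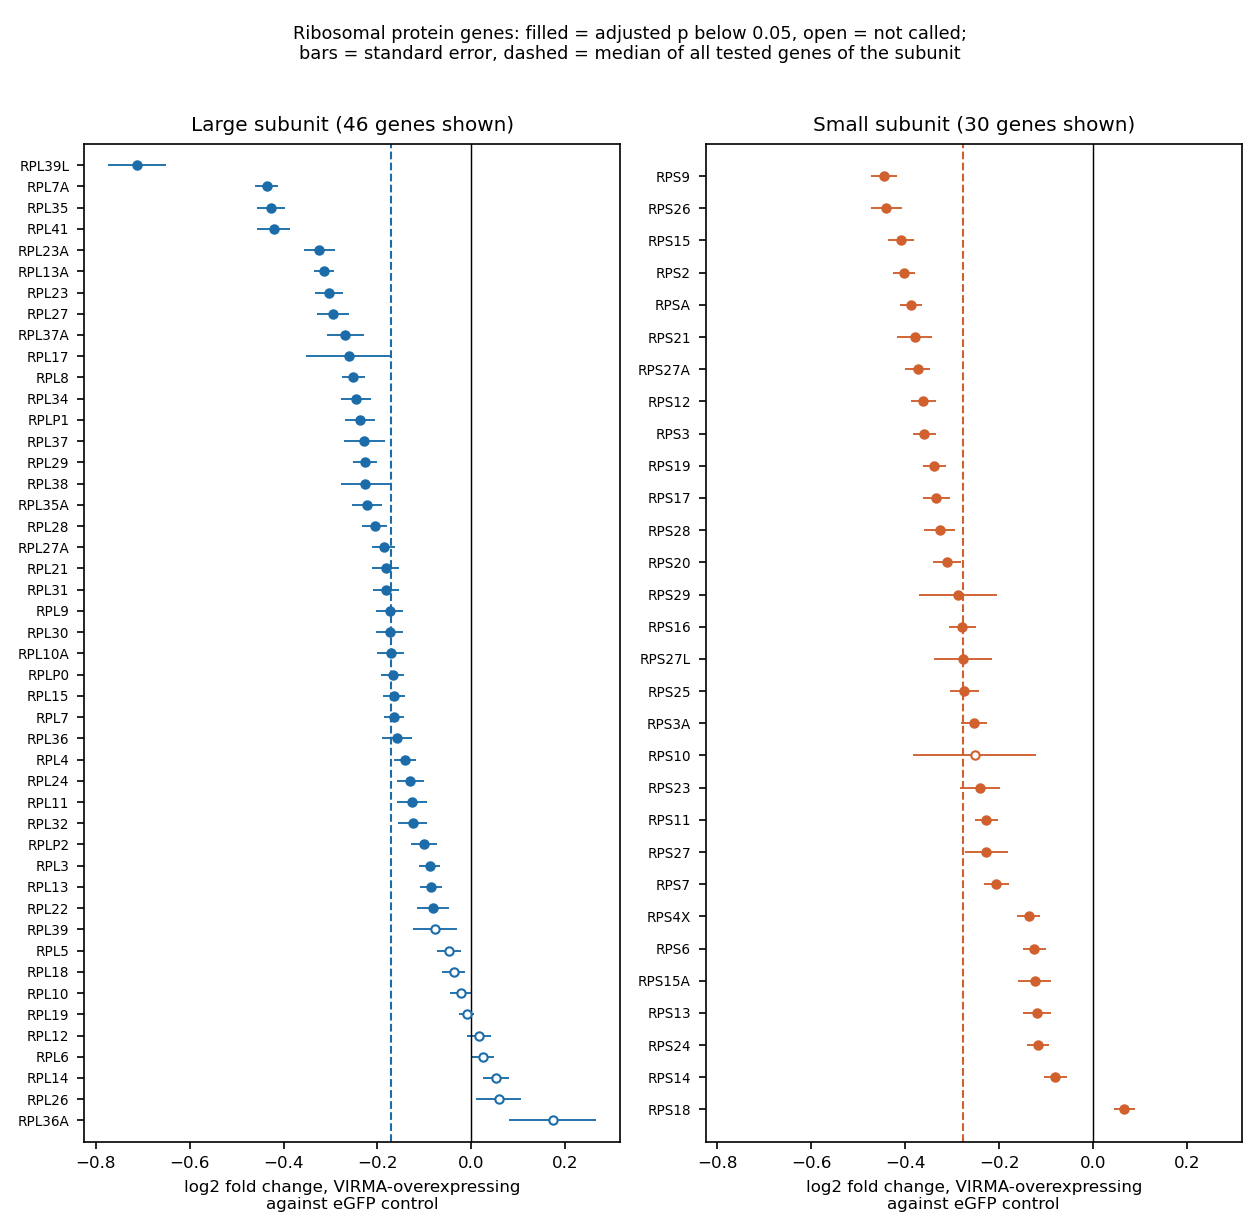
Log2 fold change (x axis, VIRMA-overexpressing against eGFP control) with its standard error for tested genes of the large (left) and small (right) subunit, with filled points for an edgeR adjusted p below 0.05 and a dashed line at the median of all tested genes of the subunit. The medians are -0.17 and -0.28, and RPS18 is the only filled point to the right of 0.

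In the large subunit 37 of 47 tested genes fell, 0 rose and 10 were not called. Over all tested genes 35.9% were lower and 35.1% higher. The large subunit median log2 fold change was -0.17, so that the median gene fell by 11.2%. At an unadjusted p below 0.05 the counts were also 37 and 0, DESeq2 called 32 lower and 0 higher, and limma-voom 37 lower and RPL14 higher. Scaling changed this split most: with library totals 28 large subunit genes were lower and 7 higher, and with upper-quartile factors 28 and 6.

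The lowest values of the large subunit belonged to RPL39L, RPL7A, RPL35, RPL41 and RPL23A. RPL7A, whose introns host small nucleolar RNAs, had 2722 and 2598 CPM in the controls and 1992 and 1941 CPM in VIRMA-overexpressing cells (log2 fold change -0.44, SE 0.0248, edgeR adjusted p 1.4e-17). RPL35, at the rim of the tunnel through which the new protein leaves, had 963 and 1007 CPM against 705 and 761 CPM (log2 fold change -0.43, SE 0.0304, edgeR adjusted p 7.73e-15). Both VIRMA-overexpressing libraries lay below both controls in either gene, as in 41.6% of all tested genes. RPL41, the shortest ribosomal protein, had 837 and 920.3 CPM against 625 and 687 CPM (log2 fold change -0.42, SE 0.0353, edgeR adjusted p 6.07e-13). RPL23A, where the signal recognition particle docks beside the tunnel exit, had 1086 and 1005 CPM against 869 and 801 CPM (log2 fold change -0.32, SE 0.0324, edgeR adjusted p 5.33e-11). In RPL23A the first library of each group was the higher, and in RPL41 the second.

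The P stalk, which recruits the elongation factors, fell in 3 of its 4 genes, where 78.7% of large subunit genes and 35.9% of all tested genes fell. RPLP0, the stalk's anchor, had 1503 and 1478 CPM in the controls and 1323 and 1331 CPM in VIRMA-overexpressing cells (log2 fold change -0.17, SE 0.0248, edgeR adjusted p 2.54e-07). RPLP1 and RPLP2, the acidic proteins of the stalk, were at -0.24 and -0.10. RPL12, at the base of the stalk, had 1455 and 1466 CPM against 1453 and 1501 CPM, so that the groups overlapped, and was not called (log2 fold change 0.02, SE 0.0251, edgeR adjusted p 0.581). RPL5 and RPL11 bring the 5S ribosomal RNA into the large subunit and are known to bind the p53 regulator MDM2 when assembly fails. RPL11 had 853 and 934 CPM against 799 and 838 CPM (log2 fold change -0.13, SE 0.0317, edgeR adjusted p 6.3e-04), and RPL5 had 1122 and 1162 CPM against 1095 and 1115 CPM and was not called (log2 fold change -0.05, SE 0.0262, edgeR adjusted p 0.104). Of 8 genes at the rim of the exit tunnel 5 fell, against 78.7% of large subunit genes, and RPL19, RPL26 and RPL39 were not called.

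RPL19, with 21254 and 21383 CPM in the controls and 20962 and 21369.7 CPM in VIRMA-overexpressing cells, was not called (log2 fold change -0.01, SE 0.0167, edgeR adjusted p 0.590). Its groups overlapped. With library totals RPL19 was called higher (0.07, edgeR adjusted p 1.1e-04), and without the filter on low levels it was called lower (-0.04, edgeR adjusted p 0.00377), so its direction rests on the scaling. Among the smallest falls that were called were those of RPL22 (-0.08), RPL13 (-0.09), RPL3 (-0.09), a protein near the catalytic centre, and RPLP2 (-0.10). With library totals none of these 4 was called, nor was RPL11, and RPL22 was at 0.0016 there.

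Leaving out 1 library changed the call of some large subunit genes. Without VIRMA-overexpressing replicate 1 the calls of RPL13 (-0.07, edgeR adjusted p 0.0567), RPLP2 (-0.06) and RPL22 (-0.03, edgeR adjusted p 0.537) were lost, and without eGFP control replicate 2 those of RPL22 (-0.01, edgeR adjusted p 0.721) and RPL11 (-0.06, edgeR adjusted p 0.0935). Without eGFP control replicate 2 RPL14 was called higher (0.09, edgeR adjusted p 0.00933). Without eGFP control replicate 1 RPL5 was called lower (-0.08, edgeR adjusted p 0.0248) and RPL36A higher (0.26, edgeR adjusted p 0.0339), and RPL17, at -0.26 with all 4 libraries, was not called (-0.21, edgeR adjusted p 0.0855), nor was it without VIRMA-overexpressing replicate 2 (-0.16, edgeR adjusted p 0.201).

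In the small subunit 29 of 32 tested genes fell, 1 rose and 2 were not called. Over all tested genes 35.9% were lower and 35.1% higher. The small subunit median log2 fold change was -0.28, so that the median gene fell by 17.5%. Among the lowest were RPS9, RPS26, RPS15 and RPS2. RPS9, which helps to set the accuracy of decoding, had 1045 and 1059 CPM in the controls and 752 and 793 CPM in VIRMA-overexpressing cells (log2 fold change -0.45, SE 0.0277, edgeR adjusted p 1.8e-16). RPS26, at the channel where the messenger RNA leaves, had 387 and 416 CPM against 291 and 301 CPM (log2 fold change -0.44, SE 0.0326, edgeR adjusted p 2.3e-14). Neither gene had overlapping groups. RPS15, in the head of the subunit near the decoding site, had 951 and 919.9 CPM against 699 and 710.3 CPM (log2 fold change -0.41, SE 0.0272, edgeR adjusted p 1.1e-15). RPS2, at the entry of the messenger RNA, had 3202 and 3280.2 CPM against 2413 and 2491 CPM (log2 fold change -0.40, SE 0.0233, edgeR adjusted p 2.4e-17). In all 4 genes both VIRMA-overexpressing libraries lay below both controls, as in 41.6% of all tested genes, and the fitted levels fell by 24.4% to 26.6%.

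RPSA, at the mRNA exit side and also known as a precursor of the laminin receptor, had 3551 and 3633 CPM in the controls and 2681 and 2812 CPM in VIRMA-overexpressing cells (log2 fold change -0.39, SE 0.0238, edgeR adjusted p 1.2e-16). RPS27A, which is made as a fusion with ubiquitin, had 1001 and 990.1 CPM against 771 and 766 CPM (log2 fold change -0.37, SE 0.0263, edgeR adjusted p 5.5e-15). RPS19, the gene mutated most often in Diamond-Blackfan anaemia, had 1855 and 1829 CPM against 1455 and 1459 CPM (log2 fold change -0.34, SE 0.0242, edgeR adjusted p 8.8e-15). In these 3 genes the replicates lay far closer to each other than the groups did. RPS6, the substrate of the S6 kinases, fell less, from 1819 and 1856 CPM to 1666 and 1704 CPM (log2 fold change -0.12, SE 0.0244, edgeR adjusted p 2.7e-05), and was not called with library totals.

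RPS18 was the only gene called higher. It had 3519.7 and 3628 CPM in the controls and 3706 and 3780.2 CPM in VIRMA-overexpressing cells (log2 fold change 0.07, SE 0.0224, edgeR adjusted p 0.00841). Both VIRMA-overexpressing libraries lay above both controls, as in 42.7% of all tested genes. The call was lost under each of the 3 other filters on low counts, without VIRMA-overexpressing replicate 2 (0.05, edgeR adjusted p 0.167) and without eGFP control replicate 1 (0.04, edgeR adjusted p 0.174). RPS10, with 424 to 501 counts a library, was not called at a log2 fold change of -0.25 (SE of 0.130, edgeR adjusted p 0.0825), a fall near the subunit's median with a far wider error. Among the smallest falls that were called were those of RPS14 (-0.08), the gene of the 5q- syndrome, RPS24 (-0.12), RPS13 (-0.12) and RPS15A (-0.12), none of which was called with library totals. RPS14 also lost its call without VIRMA-overexpressing replicate 1 (-0.07, edgeR adjusted p 0.0844) and without eGFP control replicate 2 (-0.05, edgeR adjusted p 0.110), and RPS15A without VIRMA-overexpressing replicate 2 (-0.06, edgeR adjusted p 0.166).

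Within the small subunit the head and the body both fell. Of 14 genes of the head 12 fell and RPS18 rose, with a median of -0.33, and of 17 genes of the body 16 fell, with a median of -0.23. Of all small subunit genes 90.6% fell, with a median of -0.28, against 35.9% of all tested genes. Genes of Diamond-Blackfan anaemia, an inherited failure of red cell production from loss of a ribosomal protein, are found in both subunits. Of 18 such genes 14 fell, with a median of -0.22, and RPL5, RPL18, RPL26 and RPS10 were not called. Of all 79 tested ribosomal protein genes 83.5% fell, with a median of -0.22.

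The large and the small subunit differed in their shift. The median of the large subunit genes lay 0.11 above that of the small subunit genes on the log2 scale. Of 32 small subunit genes 24 lay below the median of the large subunit genes. Falls beyond -0.2 on the log2 scale were counted at an edgeR adjusted p below 0.05. They were seen in 23 small subunit genes (71.9%) and 18 large subunit genes (38.3%), against 30.4% of all tested genes. The middle 50% of values ran from -0.24 to -0.09 in the large subunit and from -0.36 to -0.19 in the small subunit. Genes are not replicates, so no test was made of this difference.

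Summed over genes, the ratio of large to small subunit counts was 1.90 and 1.88 in control cells and 2.02 and 2.01 in VIRMA-overexpressing cells. RPL19 carries part of that ratio, since it makes up so much of the large subunit sum and was not called. Without RPL19 the ratio was 1.40 and 1.39 in the controls against 1.45 and 1.44. Either way both VIRMA-overexpressing libraries lay above both controls. The share of all counts fell from 4.15% and 4.25% to 3.77% and 3.86% for small subunit genes and was 7.87% and 7.999% against 7.63% and 7.76% for large subunit genes.

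**Figure D3:**
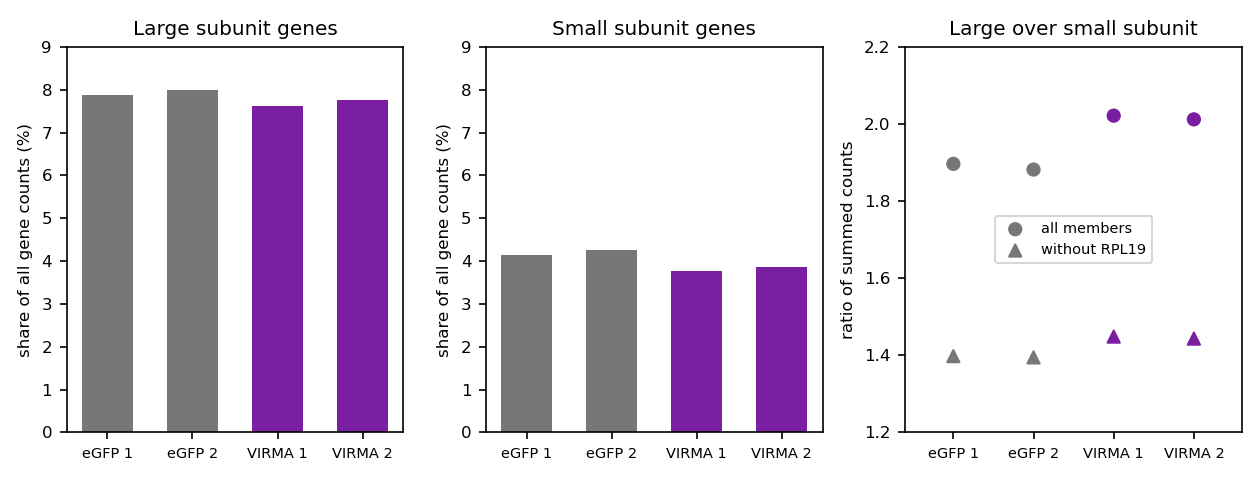
Share of all gene counts (%) in large (left) and small (middle) subunit genes, and ratio of summed large to small subunit counts (right, axis from 1.2 to 2.2; circles for all genes, triangles without RPL19), for each eGFP control (grey) and VIRMA-overexpressing (purple) library. The ratio is 1.88 to 1.90 in the controls and 2.01 to 2.02 in VIRMA-overexpressing cells.

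Level moved with the log2 fold change across the whole data. Among all tested genes the median log2 fold change was 0.09 for genes with a log2 CPM of 3 to 4 and -0.15, -0.18 and -0.12 for those of 9 to 10, 10 to 11 and 11 or more, where most ribosomal protein genes lie (28, 20 and 16 of the 79). Those 3 classes held 127, 47 and 44 genes, ribosomal protein genes included. With the trend over level subtracted, the median of the large subunit genes turned from -0.17 to 0.03 and that of the small subunit genes went from -0.28 to -0.12, while their difference was 0.15. The trend was fitted over all tested genes, ribosomal protein genes included, so that part of their own shift was subtracted with it. On that scale the large subunit median lay near 0 and the small subunit median below it.

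**Figure D4:**
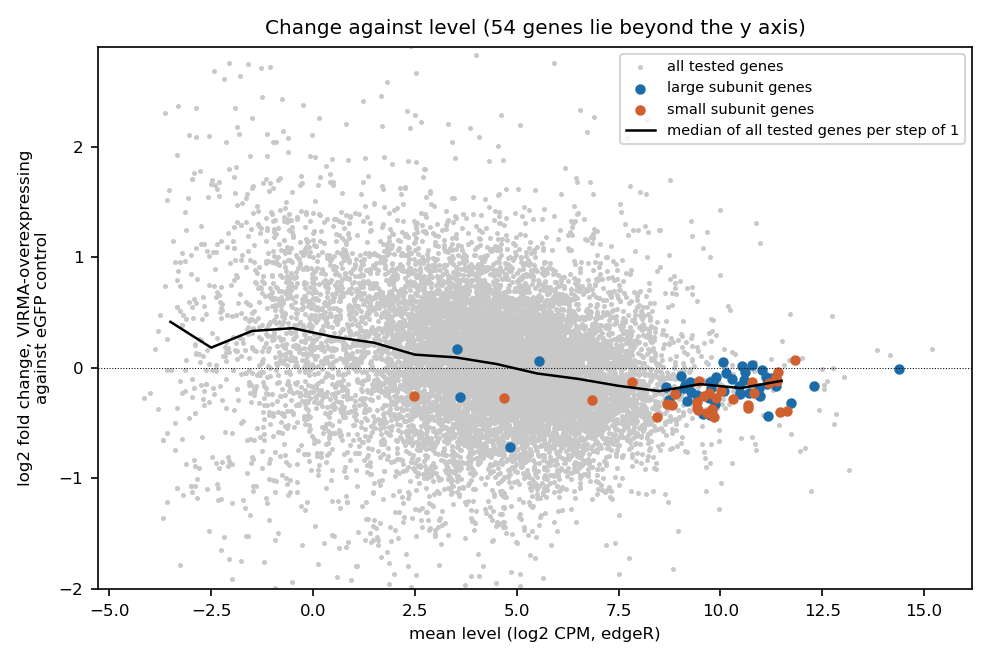
Log2 fold change (y axis) against mean level (x axis, log2 CPM) for all 12205 tested genes (grey), large subunit genes (blue) and small subunit genes (orange), with a line through the median of all tested genes in steps of 1 on the x axis (levels of 11 or more as 1 step, steps of few genes left out). The line falls below 0 at high levels, large subunit genes scatter around it, and most small subunit genes lie below it.

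Replicates of the same group also differed in a shared way over these genes. In 55 of the 79 genes replicate 2 lay above replicate 1 in both groups, against 26% of all tested genes. RPS29, the clearest case, had 104 and 151 CPM in the controls and 93.0 and 116 CPM in VIRMA-overexpressing cells. Its second control library lay 0.54 above the first on the log2 scale, more than its own log2 fold change (-0.29, SE 0.0835, edgeR adjusted p 0.00264), and the groups overlapped. RPL38 (464 and 577 CPM against 415 and 475 CPM) and RPL39 (486 and 588 CPM against 483 and 535 CPM) showed the same order, with overlapping groups. RPL38 was called lower and RPL39 was not. These calls rested on single libraries. Without eGFP control replicate 2 neither RPS29 (0.01, edgeR adjusted p 0.866) nor RPL38 (-0.06, edgeR adjusted p 0.117) was called. RPL39 was called lower without eGFP control replicate 1 (-0.21, edgeR adjusted p 3.1e-09) and without VIRMA-overexpressing replicate 2 (-0.15, edgeR adjusted p 1.7e-04).

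The difference between replicates went with the length of the coding sequence. Over the 79 genes the correlation between coding length and the log2 ratio of replicate 2 to replicate 1 was r = -0.49 (Spearman's rho -0.51) in the controls and r = -0.51 (rho -0.55) in VIRMA-overexpressing cells, so that short genes tended to differ most. These genes share the same 4 libraries and are not independent. The log2 fold change between the groups went less with length (r = 0.27, rho 0.22). For the 11 genes with a coding sequence under 300 bases the median log2 fold change was -0.28, and for the others -0.18.

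**Figure D5:**
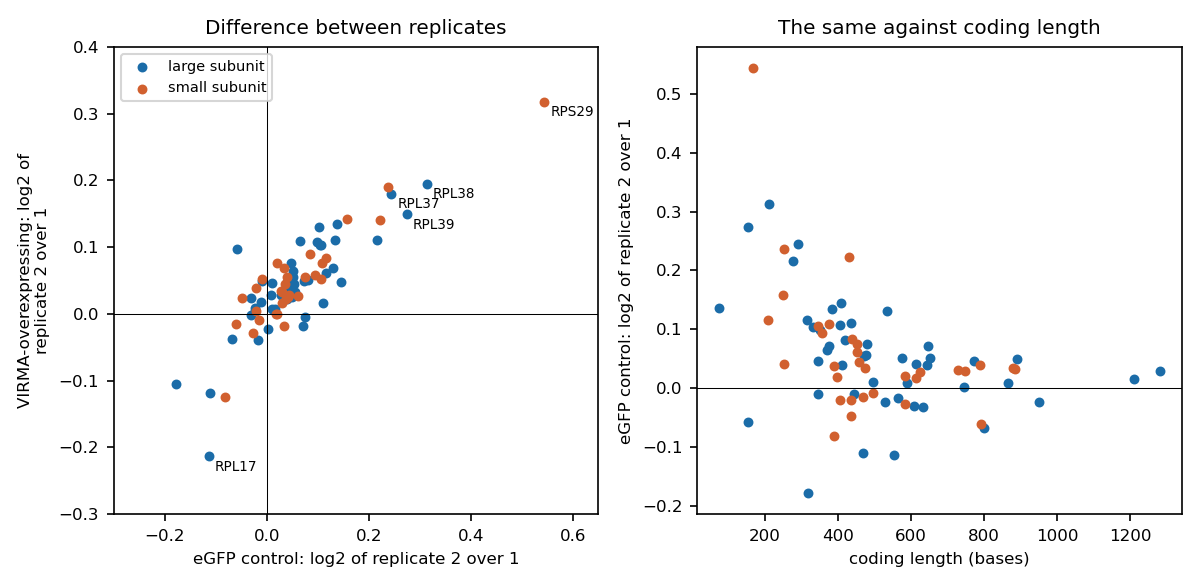
Left, log2 ratio of replicate 2 to replicate 1 in the eGFP control (x axis) and in VIRMA-overexpressing cells (y axis) for the 79 tested genes. Right, the control ratio against coding length in bases; RPS29 is highest in both panels, and genes with short coding sequences lie highest on the right.

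The paralogs restricted to some tissues or induced by stress were few and low. RPL39L, a copy of RPL39 best known from the testis, had 36.0 and 34.6 CPM in the controls and 20.8 and 22.3 CPM in VIRMA-overexpressing cells, the furthest fall of all 79 genes (log2 fold change -0.71, SE 0.0611, edgeR adjusted p 1.1e-12). RPL39 itself was not called (log2 fold change -0.08, edgeR adjusted p 0.136). RPS27L, a copy of RPS27 that p53 is known to induce, had 28.0 and 28.8 CPM against 23.2 and 23.6 CPM (log2 fold change -0.28, SE 0.0616, edgeR adjusted p 1.6e-04). Both paralogs thus fell without overlap of the groups, as did 41.6% of all tested genes. RPL3L, the striated muscle copy of RPL3, did not pass the filter, with 175 and 172 counts in control cells against 62 and 67. RPL10L, the testis copy of RPL10, had 3 and 0 counts against 0 and 5 and could not be compared at this depth.

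Ribosomal proteins whose names fall outside the RPL and RPS rule moved the same way. All 7 of them fell, with a median of -0.20 and a range from -0.57 to -0.15, where 83.5% of the 79 genes and 35.9% of all tested genes fell. They include RACK1 (-0.18), the scaffold on the head of the small subunit, FAU (-0.15), a fusion that holds a small subunit protein, and RPL26L1 (-0.57), a copy of RPL26. RPL26L1 went from 3629 and 3917 counts to 2473 and 2690, while RPL26 was not called (log2 fold change 0.06, edgeR adjusted p 0.277).

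Other messages of translation that are known to carry a TOP tract were also listed. Of 17 tested, 9 fell and 3 rose, with a median of -0.12, where 35.9% of all tested genes were lower and 35.1% higher. EIF3F (-0.28) and EIF3K (-0.26), subunits of an initiation factor, were lowest, and PABPC1 (0.29), the poly-A binding protein, and NACA (0.24), which binds new protein chains at the ribosome, were highest. EEF1G was listed at 0 in all 4 libraries and was not tested.

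Of 12 genes of mTOR signalling to TOP messages 6 were lower and 5 higher, with a median of -0.06, a split near that of all tested genes (35.9% lower, 35.1% higher). The initiation factor EIF4E fell (-0.44), and its inhibitors, the 4E-BP genes, moved apart: EIF4EBP2 fell (-0.79) while EIF4EBP1 (0.76) and EIF4EBP3 (0.99) rose. EIF4EBP1 went from 7434 and 7674 counts to 12690 and 13175, and EIF4EBP2 from 20657 and 20479 to 12339 and 11833. The call of EIF4EBP3, with 68 to 171 counts a library, was lost without VIRMA-overexpressing replicate 1 (0.80, edgeR adjusted p 0.0601). LARP1, which binds the TOP tract, was not called (log2 fold change 0.03, edgeR adjusted p 0.409). Transcript levels say nothing of the phosphorylation by which these proteins act.

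Dedicated chaperones of ribosomal proteins fell in 6 of 9 cases and rose in 2, with a median of -0.15, against 35.9% and 35.1% of all tested genes. GRWD1, which escorts RPL3, fell furthest (-0.83), from 8378 and 8305 counts to 4794 and 4748. PDCD2L, a relative of the RPS2 chaperone PDCD2, fell by 0.41 on the log2 scale. RPF2, which places the 5S particle, rose (0.40), and so did LTV1 (0.18), a small subunit assembly factor. The call of LTV1 was lost under DESeq2, under each of the 3 other filters, and without VIRMA-overexpressing replicate 2 (0.16, edgeR adjusted p 0.113), eGFP control replicate 1 (0.17, edgeR adjusted p 0.0859) or eGFP control replicate 2 (0.18, edgeR adjusted p 0.0673).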

How the data were processed

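Poly-A RNA of SKBR3 cells was sequenced in 2 eGFP control and 2 VIRMA-overexpressing libraries. Per the submitters' processing notes, the authors checked reads with FastQC, trimmed them with Trimmomatic 0.39, aligned them with STAR 2.5.2a and counted them per gene with featureCounts of Subread. The deposited values are raw read counts per gene, not normalized, with exon coordinates on hg38. The kit was stranded, but whether counting used strand, and how multi-mapping reads were treated, is not given in the sources used here, so near-identical, overlapping and antisense genes are uncertain. Control columns name the control; the other columns, headed by a number, were taken as VIRMA-overexpressing.

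RPKM was computed from the deposited counts, library totals and exonic lengths, and the 12205 genes above 1 in at least 2 libraries were tested in edgeR 4.0.16 (quasi-likelihood test, R 4.3.3, TMM, group as the only term, Benjamini-Hochberg adjustment over all tested genes). A gene was called at an adjusted p below 0.05. CPM values are scaled with the TMM factors. SEs were derived from the F statistics. Libraries held 81446932 to 86375474 counts, and the common biological coefficient of variation was 3.93%. The study's methods call the replicates biological duplicates, and the p-values measure the spread between these libraries. Whether the 2 libraries of a group came from separate transductions is not given in the sources used here. A difference between the sorted populations other than VIRMA was not tested. Scripts were tested on simulated data.

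Named were, in each subunit, the 5 genes with the highest and the 5 with the lowest log2 fold change among those called, the 2 with the highest adjusted p, a fixed set (stalk, 5S particle, RPSA, RPS6, RPS27A, RPS19 and paralogs), untested genes, and the 2 highest and 2 lowest of each further list. RPL14, RPL17, RPL18, RPL23, RPL26, RPL36A, RPL38, RPL39, RPS29, LARP1, HBB and EEF1G were named after their values were seen. Some genes the rule names are not reported here, though they stay in the counts and medians. The members, lists and roles were chosen with earlier results of these data known. Alternatives were DESeq2 1.42.0, limma-voom (limma 3.58.1), 4 other scalings, 3 other filters, a replicate block, leaving out each library, a threshold of 0.01, pseudogene counts added, trends over length or level subtracted, and, chosen after seeing the data, leaving out RPL19 or genes under 5000 counts.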

Additional observations from a re-analysis of the deposited data

How the results depend on the processing

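Of the values over whole subunits, 92 kept their direction and stayed within 1.5 times the main count or the replicate spread, 18 moved and 1 reversed, leaving out libraries aside. The reversed value is the large subunit median, 0.02685 with the trend over level subtracted, and RPL11 (0.073), RPL13 (0.13), RPL22 (0.12), RPL3 (0.13), RPLP0 (0.041), RPLP2 (0.11), RPS13 (0.075), RPS14 (0.14), RPS15A (0.031), RPS24 (0.099), RPS6 (0.087), FAU (0.038) and RACK1 (0.028) turned positive with it. With the length trend subtracted RPLP2 (0.020), RPS13 (0.014) and RPS6 (2.8e-04) did. With library totals RPL19 (0.073), RPL22 (0.0016) and RPS14 (0.0038) turned positive, and RPL19 (0.061) with upper-quartile factors. RPL5, not called, was at 0.036 and 0.024 on these scales, and with the level and length trends subtracted RPL5 (0.16, 0.071) and RPL19 (0.23, 0.12) were positive. The small subunit median was -0.12 without the level trend, -0.21 without the length trend, -0.32 with filterByExpr, -0.31 with no filter, -0.19 with library totals and -0.21 with upper-quartile factors. The large subunit median was -0.089 with library totals. Large subunit genes called higher numbered 7 with library totals, 6 with upper-quartile factors and 1 each with limma-voom, pseudogene counts added and the replicate block. No small subunit gene was called higher (0) with filterByExpr, no filter or a minimum of 10 counts in every library.

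The large to small subunit count ratio, VIRMA-overexpressing over control, was 1.068, and 1.036 without RPL19 (1.063 to 1.072 leaving out 1 library). The share of counts in ribosomal protein genes, VIRMA-overexpressing over control, was 0.949, and 0.963 outside mitochondrial genes (0.940 to 0.958 leaving out 1 library). VIRMA itself was at 2.15 without the length trend. Leaving out 1 library, which assumes that the lone library varies like the other group, gave 33 to 38 large and 27 to 29 small subunit genes lower, 0 to 1 higher in each subunit, and medians of -0.20 to -0.14 and -0.33 to -0.25. Library totals shifted all genes by 0.08 and upper-quartile factors by 0.07. Replicate numbers are shared by the groups, but same-numbered libraries did not deviate together over all tested genes (r = 0.053; r = 0.86 over the 79 ribosomal protein genes). With the replicate block 40 large and 30 small subunit genes were lower and 1 of each higher, the large one being RPL14, and RPL5 was called lower. For single genes, 512 values kept their call or stayed uncalled, or stayed near the main value where a subtracted trend left no call. Of the rest, 28 lost their call, 10 gained one, 60 moved and 20 reversed in direction, with or without a call. The cause was not tested. Calls of genes under 1000 counts are limited by depth.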
